A study of Drosophila melanogaster with 3 samples.

Results

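Chromatin bound by the homeodomain protein achintya (achi) in Drosophila melanogaster prepupae was examined at the starts of noncoding RNA genes. The regions described are peaks of the authors' optimal list whose summit lay within 500 bp of a transcript start of a gene of Ensembl biotype ncRNA and over 500 bp from every protein-coding start. There were 252 such peaks among 8998 optimal peaks. The others were 2928 peaks within 500 bp of a protein-coding start, called protein-coding promoter peaks, and 5818 peaks away from both kinds of start, called other distal peaks. A further 123 summits lay within 500 bp of both kinds of start and were counted with the promoters. The flies were a transgenic line stably expressing an achi protein tagged with GFP at the C-terminus, at the prepupal stage, with males and females pooled. Whole animals were used, so no tissue can be assigned to a peak, and the age was not given. Chromatin immunoprecipitation followed by sequencing (ChIP-seq) used an anti-GFP antibody in 3 biological replicates, which form a single group. One label names achi as the antibody's target. Whether the replicates share a batch is not in the labels. Untagged flies were not analysed here.

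Long noncoding RNAs are transcripts of about the size of messenger RNAs that are not known to be translated. Many are made by RNA polymerase II, and some serve as precursors of microRNAs or as hosts of the small nucleolar RNAs (snoRNAs) that guide the modification of ribosomal RNA. Achi belongs to the TGIF class of homeodomain proteins, whose core binding word is TGACAG, and is encoded beside its near-identical copy vismay. The Ensembl biotype is wider than the long RNAs, since it also holds microRNA hairpins and annotated small RNAs, whose annotated ends are processing sites. Of the 252 peaks, 240 had an ncRNA gene of at least 200 bp within 500 bp, and 12 had only shorter ones. The nearest gene carried the name prefix lncRNA at 216 peaks and asRNA, for antisense RNA, at 22. It was a microRNA hairpin at 4 peaks and another ncRNA at 10.

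The sequences below show the ground on which these peaks lay. They are plus-strand sequence of the Release 6 assembly (dm6) from RefSeq, and each peak is named by its nearest ncRNA gene. The first set holds 41 bases centred on the summits, in capitals, of 6 of the strongest peaks. It shows the AT-rich sequence found under many of them.
CR31044 at chr3R:29214424-29214464: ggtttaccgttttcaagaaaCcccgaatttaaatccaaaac
CR44619 at chrX:12752342-12752382: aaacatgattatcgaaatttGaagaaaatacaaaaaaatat
CR46102 at chr3R:25738151-25738191: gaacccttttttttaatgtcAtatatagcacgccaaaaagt
CR44676 at chr3L:19560801-19560841: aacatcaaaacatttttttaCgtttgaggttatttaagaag
CR46036 at chr3R:17700562-17700602: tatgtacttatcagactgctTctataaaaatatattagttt
CR45595 at chr3R:11780295-11780335: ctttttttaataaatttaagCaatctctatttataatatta
The second set shows the joined word CAGTGTA or its reverse complement TACACTG, in capitals, at the 4 strongest peaks of the arms shown that held it within 100 bp of the summit. This word unites AGTGTA and ACACTG, which had the largest ratio of summit to flank share among the searched words found in the flanks, in the optimal list.
CR46102 at chr3R:25738245-25738281: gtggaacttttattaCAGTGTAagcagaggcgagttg
CR44676 at chr3L:19560739-19560775: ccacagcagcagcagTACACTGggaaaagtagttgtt
CR45721 at chr2L:18310701-18310737: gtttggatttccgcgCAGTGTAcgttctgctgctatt
CR44018 at chr3R:10638802-10638838: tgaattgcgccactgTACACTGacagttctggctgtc
The third set shows TGACAG or its reverse complement CTGTCA, in capitals, at 6 peaks that held it within 100 bp of the summit.
CR45999 at chr3R:4395382-4395417: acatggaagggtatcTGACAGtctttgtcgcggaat
CR44478 at chr2L:18145456-18145491: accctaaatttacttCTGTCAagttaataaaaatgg
CR44429 at chrX:15298378-15298413: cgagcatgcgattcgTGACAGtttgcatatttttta
CR44018 at chr3R:10638819-10638854: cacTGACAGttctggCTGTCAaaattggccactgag
CR44698 at chr2L:4348785-4348820: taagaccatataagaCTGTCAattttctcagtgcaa
CR46110 at chr3R:29774540-29774575: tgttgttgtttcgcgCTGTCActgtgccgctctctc
The last set gives 41 bases around the summits at 3 known noncoding genes, the heat-shock RNA Hsromega, the piRNA cluster flamenco (flam) and TS2.
Hsromega at chr3R:21296300-21296340: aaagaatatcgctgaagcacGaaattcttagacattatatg
flam at chrX:21631701-21631741: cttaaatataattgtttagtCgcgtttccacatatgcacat
TS2 at chr2L:3587464-3587504: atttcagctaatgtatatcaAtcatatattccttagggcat

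Binding touched a minority of ncRNA genes. Of 3261 ncRNA genes on the 6 chromosome arms, 375, or 11.5%, had an optimal summit within 500 bp of a start, against 3234 of 13945 protein-coding genes, or 23.2%. Among the 2723 ncRNA genes with a start over 500 bp from every protein-coding start, called free starts below, 253, or 9.29%, had one of the 252 peaks. Genes named lncRNA stood above that figure, with 204 of 1694, or 12.0%. The share was 4.57% for antisense RNAs (15 of 328), 4.76% for microRNA hairpins (11 of 231) and 4.89% for other ncRNAs (23 of 470). These shares are descriptions of the lists and were not tested.

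The peaks lay on 5 of the 6 arms, with 63 on 2L, 44 on 2R, 64 on 3L, 54 on 3R and 27 on X. Chromosome 4 had none, among 17 optimal peaks and 22 genes with free starts. The peaks made up 3.81% of the optimal peaks of 2L and 1.60% of those of X. Measured per gene with a free start, the arms were closer, from 10.4% on 3L to 7.59% on X.

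Summits were not gathered at the ncRNA start itself, and within 300 bp of it more lay upstream than downstream. On sequence over 500 bp from protein-coding starts the optimal list had 0.0937 summits per kb within 100 bp of an ncRNA start, 0.113 per kb within 500 bp, 0.0941 per kb from 500 to 1000 bp, and 0.0669 per kb from 1000 to 5000 bp. Around protein-coding starts the density was 0.296 per kb within 100 bp and 0.0636 per kb from 500 to 1000 bp. The ncRNA starts thus sat on a broad shoulder of raised density without a sharp maximum at the start, and the density at protein-coding starts was highest in the first 100 bp.

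The replicate's top list was its own 8998 strongest regions. In replicates 1, 2 and 3 these had 0.115, 0.0958 and 0.0958 summits per kb within 100 bp of an ncRNA start. The zone from 500 to 1000 bp had 0.0946, 0.0936 and 0.106 per kb. The first 100 bp thus lay above that zone in replicates 1 and 2 and below it in replicate 3. Within 100 bp of an ncRNA start the replicates had 0.102 ± 0.0108 summits per kb, against 0.0979 ± 0.00670 per kb from 500 to 1000 bp (SD, n = 3). The difference was 0.00413 ± 0.0150 per kb, smaller than its spread (exact sign-flip permutation test over the 3 replicates, two-sided, p = 0.75). Over the full 500 bp the density was 0.110 ± 0.00289 per kb, and the difference from the 500 to 1000 bp zone was 0.0119 ± 0.00835 per kb, positive in 3 of 3 replicates (same exact test, p = 0.25). For protein-coding starts the first 100 bp exceeded the 500 to 1000 bp zone by 0.255 ± 0.0728 per kb (same exact test, p = 0.25). With 3 replicates this sign-flip test cannot give a p below 0.25, so none of the differences tested with it can pass 0.05. A p of 0.25 says only that the 3 replicates had the same sign, whatever their spread.

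**Figure D1:**
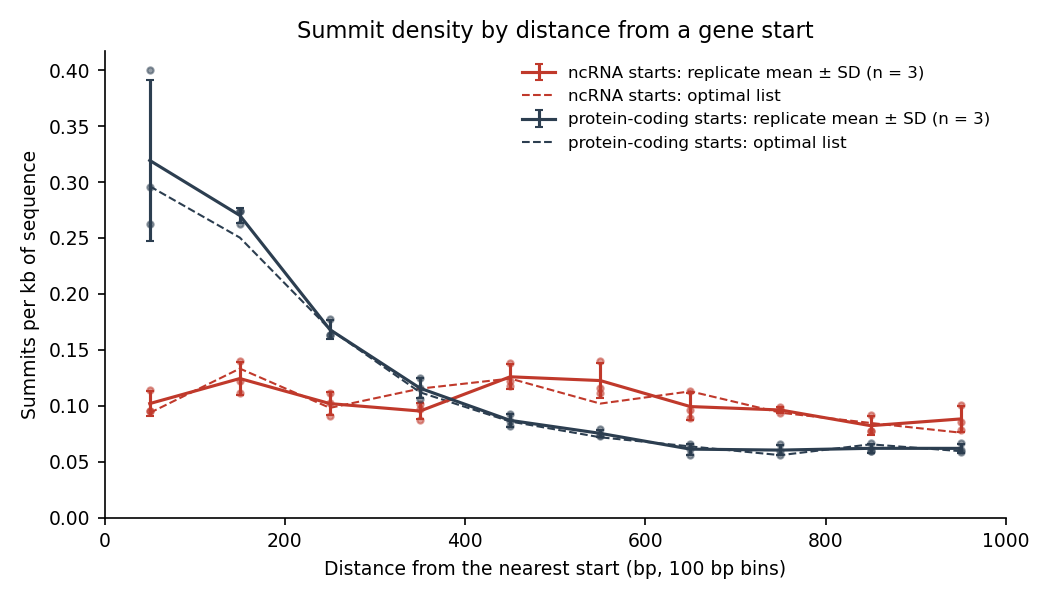
Summits per kb of sequence (vertical axis) against distance from the nearest ncRNA or protein-coding start (horizontal axis, 100 bp bins). Solid lines join the means of the 3 replicate top lists with their SD, points are replicates and dashed lines the optimal list; the ncRNA line stays near 0.1 per kb while the protein-coding line reaches 0.319 per kb in the first bin.

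The position relative to the direction of transcription was uneven. In the optimal list, 147 summits lay upstream of the nearest start, 104 downstream and 1 at the start. Within 300 bp the counts were 104 upstream and 43 downstream, or 0.155 and 0.0618 summits per kb. The replicates' own peaks at ncRNA starts gave 102, 98 and 100 summits upstream and 50, 51 and 51 downstream within 300 bp. Their upstream density was 0.149 ± 0.00297 per kb and their downstream density 0.0728 ± 0.000829 per kb (SD, n = 3). The difference of 0.0758 ± 0.00371 per kb was larger than its spread and had the same sign in 3 of 3 replicates (exact sign-flip test, two-sided, p = 0.25, the smallest possible). The 300 bp window was chosen after the positions in the optimal list had been seen, and that list was made from these replicates.

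The uneven sides did not extend over the whole 500 bp. From 300 to 500 bp the optimal list had 43 summits upstream and 61 downstream. The replicates had 41, 46 and 45 upstream and 47, 56 and 47 downstream there, a difference of -0.00333 ± 0.00879 per kb, smaller than its spread (exact sign-flip test, two-sided, p = 0.75). Over the full 500 bp the difference was 0.0454 ± 0.00481 per kb (same exact test, p = 0.25).

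The fullest 100 bp bin was the one from 200 to 100 bp upstream, with 44 summits. The emptiest was from 200 to 300 bp downstream, with 12. Only 45 of the 252 summits, 17.9% (95% Wilson interval 13.6 to 23.1%), fell within 100 bp of the start on either side. Such intervals here cover counting error only.

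**Figure D2:**
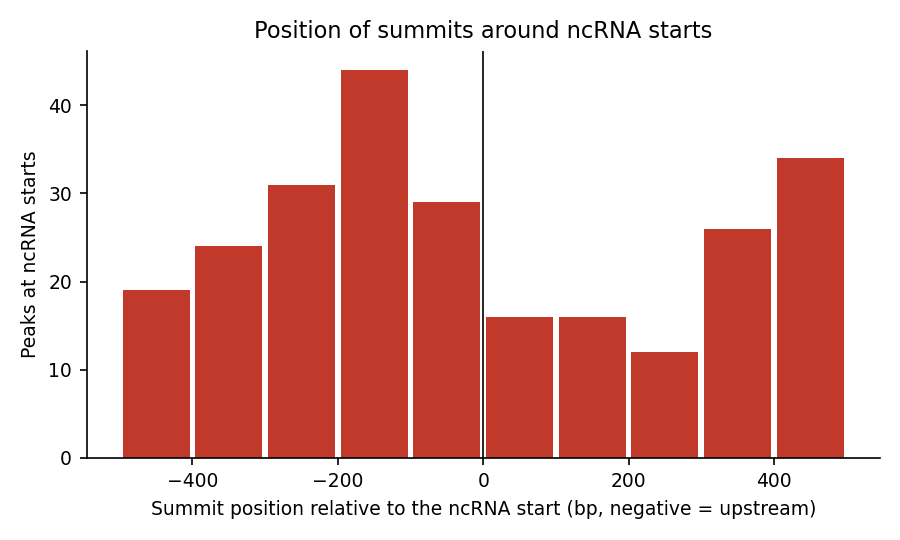
Number of optimal peaks at ncRNA starts (vertical axis) by summit position relative to the nearest ncRNA start in 100 bp bins, negative being upstream (horizontal axis). The bin from 200 to 100 bp upstream holds 44 summits and the 3 bins just downstream hold 16, 16 and 12; 1 summit exactly 500 bp downstream is outside the bins.

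Set against the body of the nearest ncRNA gene, 139 summits (55.2%) lay upstream of the gene, 74 (29.4%) in its own exons, 19 (7.54%) in its own introns and 20 (7.94%) beyond its 3′ end. Own exons made up 41.2% of the sequence within 500 bp of the starts and carried 0.0806 summits per kb. The upstream part carried 0.132 per kb, the part beyond the 3′ end 0.120 per kb, and own introns, which are only 4.24% of that sequence, 0.201 per kb. Base composition also differed around the summits. The median GC content within 100 bp of the summit was 33.3%, against 41.3% in windows 1000 bp away. The other classes had a similar drop, with 33.8% against 41.0% for other distal peaks and 35.3% against 44.0% for promoter peaks. The part of base composition in the position of the summits, or in the word shares below, was not tested.

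No ncRNA gene had more than 2 of these summits, and 22 genes had 2. At 14 of the 22 the summits lay on opposite sides of the gene's 5′ end. At CR44867, a gene of 372 bp inside beat-Ib on the opposite strand, one summit lay 439 bp upstream and the other 415 bp downstream, past the gene's 3′ end. CR44276, CR44605, CR44970 and CR45632 had the same arrangement, so that 5 short ncRNA genes lay between a pair of achi summits. At 4 of the remaining genes (CR44544, CR44723, CR44868 and CR44720) both summits were on one side and 199 or 200 bp apart. Each of these 4 pairs overlapped the same strongest region in every replicate. So did the pairs at CR31840, which is among the 14, and at CR44677, CR45531 and CR46035. The replicate ranks thus do not show these pairs as separate sites.

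Most of the peaks lay between protein-coding genes. Of the 252, 174 (69.0%) were intergenic, 69 (27.4%, 95% Wilson interval 22.2 to 33.2%) were in an intron of a protein-coding gene and 9 (3.57%) in an exon. The other distal peaks had 31.9% between genes and 66.0% in introns. Of the free ncRNA starts themselves, 58.0% were intergenic and 30.2% intronic. For ncRNA genes of at least 200 bp, which most of the peaks had nearby, 64.5% of free starts were intergenic and 25.2% intronic. Per free start, 11.1% of intergenic starts (182 of 1647) had a peak, 8.04% of intronic ones (69 of 858) and 2.98% of those in protein-coding exons (10 of 336). Where the peak was inside a protein-coding gene, the ncRNA ran on the opposite strand at 55 and on the same strand at 22. At 1 peak there were protein-coding genes on both strands. The same split among all free ncRNA starts is not given here, so these counts are not a trait of the bound genes.

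The peaks were spread over the whole range of strength. The deposited signal served for ranks alone, 1 being the strongest, because its scaling is not stated. Ranks of these peaks ran from 66 to 8927 with a median of 4164. The first 100 optimal peaks held 2 of them and the first 1000 held 33. Their share per 1000 ranks stayed between 2.2% and 3.3%, while that of protein-coding promoter peaks was 53.1% in the first 1000 ranks and 27.1% in the last 998.

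To place all classes on one scale, each optimal peak took the percent rank of the strongest overlapping region in a replicate's list of 30000 regions, 100 being the strongest. The median percent rank of the peaks at ncRNA starts was 86.0, 86.7 and 86.1 in replicates 1, 2 and 3. The other distal peaks had 83.5, 84.1 and 85.1, and the protein-coding promoter peaks 89.1, 88.7 and 87.8. The peaks at ncRNA starts were thus between these classes in 3 of 3 replicates. They exceeded other distal peaks by 2.02 ± 0.848 points and fell below promoter peaks, with a difference of -2.29 ± 0.715 points (SD, n = 3). Each exact sign-flip test gave p = 0.25, the smallest possible (two-sided, adjusted p = 0.25 over the pair of tests, Benjamini-Hochberg). The peaks were taken from the optimal list, which was made from these replicates. Its own median percent ranks had the same order, 53.7 at ncRNA starts, 46.5 for other distal and 58.0 for promoter peaks. The replicate values are thus a description and no independent evidence of that order.

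**Figure D3:**
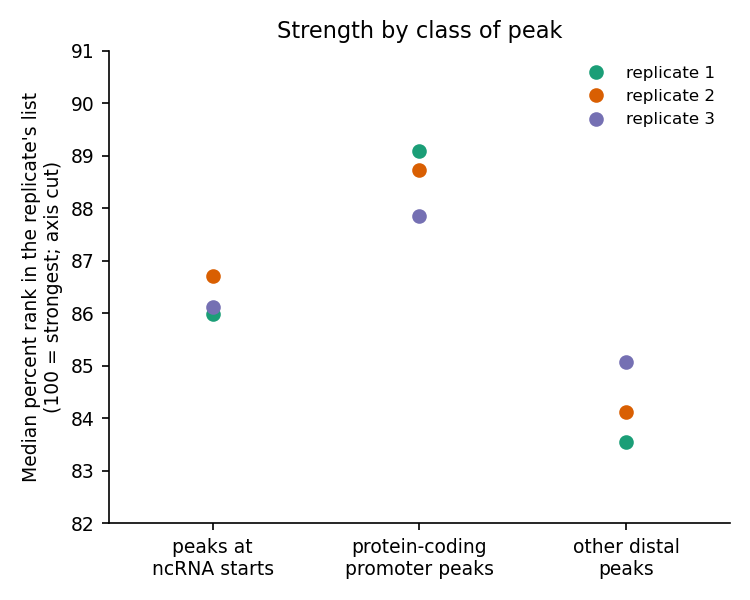
Median percent rank in each replicate's list of 30000 regions (vertical axis, 100 = strongest, axis cut to 82 to 91) for peaks at ncRNA starts, protein-coding promoter peaks and other distal peaks. Each point is 1 replicate; the points of the peaks at ncRNA starts, 86.0 to 86.7, lie below those of the promoter peaks and above those of the other distal peaks.

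Replicates recovered these peaks about as often as other peaks. The summit lay in the top lists of all 3 replicates for 187 of the 252 (74.2%, 95% Wilson interval 68.5 to 79.2%), against 72.1% of all optimal peaks, 71.2% of other distal peaks and 73.5% of promoter peaks. A further 44 were in 2 top lists, 20 in 1 and 1 in none. When the same distance rule was applied to the top lists themselves, it found 240, 252 and 243 peaks in replicates 1, 2 and 3. These lay at 246, 257 and 252 ncRNA genes, of which 182 genes were found in all 3 replicates and 181 of those in the optimal list as well.

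The strongest peak lay 118 bp upstream of CR31044, at chr3R:29214562-29219667, and ranked 66 of 8998. CR31044 is the transcript that holds the hairpins of mir-279 and mir-996, related microRNAs known for repressing the formation of carbon dioxide-sensing neurons. Its ranks were 67, 84 and 62 in replicates 1, 2 and 3. A weaker peak, rank 6033, lay 204 bp upstream of the mir-279 hairpin itself.

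The next peaks lay at ncRNA genes known by number alone. CR44619 on X had a summit 495 bp into the gene (rank 99; replicate ranks 122, 90 and 83). CR46102 (rank 116; replicate ranks 109, 134 and 115) starts in an intron of LpR2, a lipophorin receptor gene, on the opposite strand. CR44339 (rank 148; replicate ranks 171, 179 and 112) had Psc, a Polycomb group gene, as the nearest protein-coding start at 4226 bp. The percent ranks of these 4 peaks averaged from 99.5 to 99.8, near the top of the scale, with SDs of at most 0.122. They were chosen as the strongest in a list made from these replicates, so this is a description.

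CR46036 (rank 176; replicate ranks 176, 162 and 194) and CR46035 (rank 495; replicate ranks 738, 347 and 444) both lie inside osa, which encodes a subunit of the Brahma chromatin-remodelling complex, on the opposite strand. CR44222 (rank 405) starts 14 bp from its summit in an intron of kis, a chromodomain remodeller gene, and CR42657 (rank 781) had a summit 677 bp from the start of nej, which encodes the CBP acetyltransferase. Other leading peaks lay at CR45997 inside mbl, a splicing regulator gene (rank 511), at CR45243 near fng, whose product modifies Notch (rank 607), and at CR44810 near slbo, a C/EBP factor gene (rank 762). CR44478 (rank 833) lies inside Socs36E, a suppressor of JAK/STAT signalling. No gene group was tested, and proximity does not tell which gene, if any, is regulated.

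**Figure D4:**
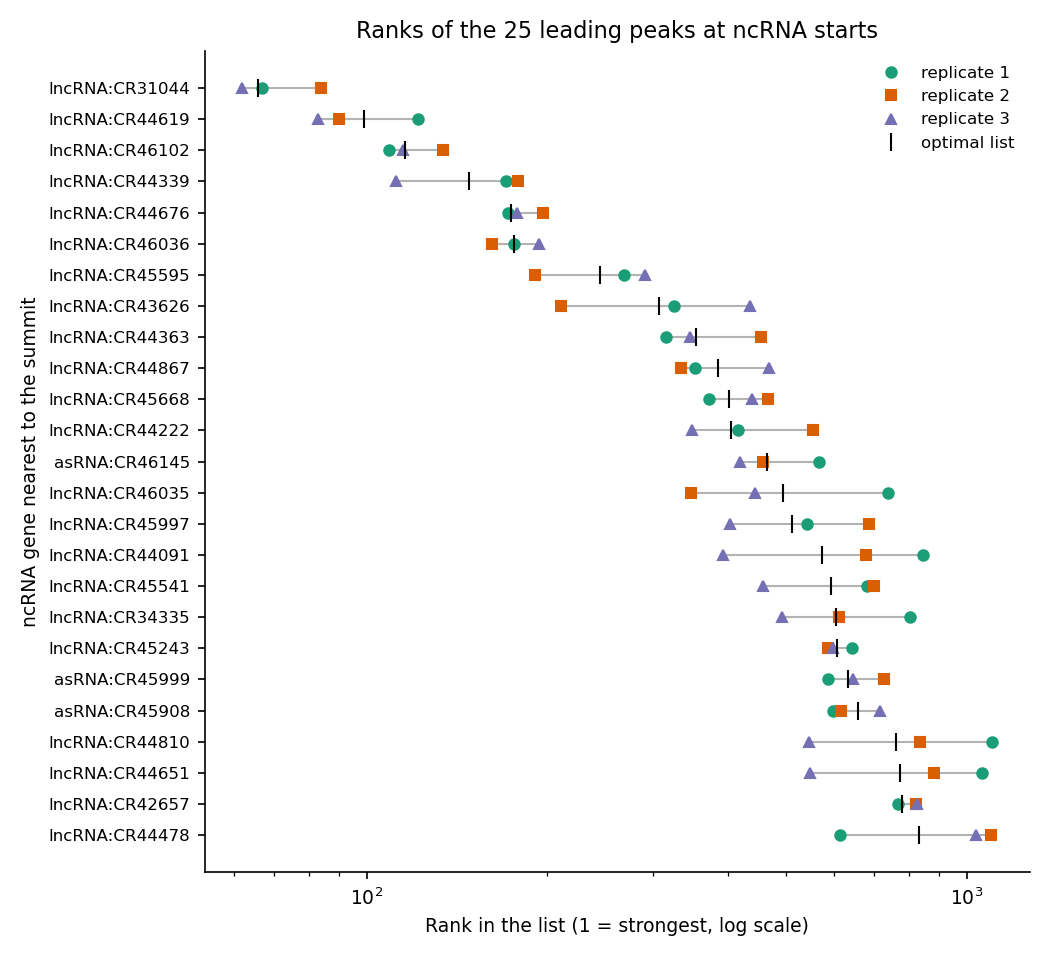
Rank (horizontal log axis, 1 = strongest) of the 25 strongest peaks at ncRNA starts whose summit lay in the top lists of all 3 replicates, 1 row per nearest ncRNA gene (vertical axis). Coloured points are the replicates and black bars the optimal list; ranks of CR31044 lie between 62 and 84, and those of CR44478, the lowest row, between 616 and 1099.

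The other leading genes were CR44676 (rank 174), CR45595 (245), CR43626 (307), CR44363 (354), CR44867 (385), CR45668 (402), CR46145 (465), CR44091 (575), CR45541 (593), CR34335 (605), CR45999 (634), CR45908 (660) and CR44651 (774). Of the 25 leading peaks, 14 were intergenic, 10 intronic and 1 exonic. The summit at CR45668 was 675 bp from the start of Act5C, an actin gene. Among these 25 the replicate ranks were farthest apart at CR44810, with 1103, 835 and 546.

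Among long ncRNA genes, several precursors of microRNAs were bound. Of 230 ncRNA genes of at least 200 bp with a peak, 10 held an annotated microRNA hairpin or snoRNA (4.35%, 95% Wilson interval 2.38 to 7.82%). Among the 1823 long genes with a free start and no peak, 33 did (1.81%, 1.29 to 2.53%). This count was made after the leading peaks had been seen, and it was not tested. Hosts with a peak had 1.90 annotated starts on average and hosts without 1.52, against 1.10 and 1.06 among all genes with and without a peak, so hosts had more chances to be counted.

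Of these hosts, CR43626, which holds mir-282, had peaks of rank 307 and 933, 425 bp and 358 bp from a start. The first ranked 325, 211 and 435 in replicates 1, 2 and 3. CR43650, which holds mir-8, a microRNA known for promoting growth in the fat body, had a peak of rank 1569, 125 bp from a start (replicate ranks 1270, 1629 and 2194). CR43857, which holds mir-275, had a peak of rank 2192, and a second peak of rank 1849 lay by the mir-275 hairpin.

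A further 4 microRNA hosts had peaks ranked beyond 5000 in the optimal list. CR43651, with mir-14, known for limiting cell death, had rank 5142 and replicate ranks 3290, 10066 and 5980. CR44206, with mir-184, had rank 8489 and replicate ranks 5522, 9799 and 12218, and thus lay outside 2 of the 3 top lists. At CR46006, with mir-276a, the peak of rank 6086 had replicate ranks 4227, 6497 and 16920, while the peak of rank 7787 overlapped stronger regions in each replicate, with 3105, 2587 and 2115. CR46194, with mir-281-1 and mir-281-2, had rank 5346 and replicate ranks 4813, 4291 and 5684. The replicates were thus far apart at CR43651, CR44206 and the first peak of CR46006, and closer at the others.

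Other well-known precursors had no peak within the limit, at distances that varied widely. The nearest summit to let7C, the precursor of let-7, was 527 bp from its start with rank 1606. That of CR43334, the precursor of bantam, was 1050 bp away with rank 759. Those of iab8 and iab4, which hold microRNAs of the bithorax region, were 8177 and 11147 bp away. A separate peak of rank 4708 lay within 500 bp of the bantam hairpin itself, at an annotated small RNA.

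From a list of 58 names of known noncoding RNAs, 46 genes were found, 40 of them with a free start, and 5 of these had a peak. That is 12.5% of 40, beside 9.29% of all ncRNA genes with a free start. The list was written with earlier results of these data known, and the shares were not tested. Hsromega, the heat-shock-inducible nuclear RNA that also holds mir-4951, had a summit 193 bp downstream of its start (rank 891; replicate ranks 861, 1042 and 831). Uhg4, a snoRNA host, had a summit 56 bp upstream (rank 1380; replicate ranks 901, 1295 and 2214). The start of flam, whose transcript is cut into piRNAs that silence transposons in ovarian somatic cells, had a summit 170 bp upstream (rank 4032; replicate ranks 3775, 4413 and 4275).

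The fourth was sisRNA:4, a stable intronic RNA inside dpn (rank 1565; replicate ranks 1448, 1677 and 1774). The fifth was TS2 (rank 7579; replicate ranks 8622, 9229 and 8379). A summit at Uhg8 and one at sisRNA:CR46364 were also near protein-coding starts and were not counted. The dosage compensation RNAs roX1 and roX2 had their nearest summits 4526 and 1396 bp away, and bxd of the bithorax region 1411 bp away.

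Over all of these peaks, no excess of the TGIF core word under the summits was detected. TGACAG was found within 100 bp of the summit on either strand at 19 of the 252 peaks (7.54%, 95% Wilson interval 4.88 to 11.5%), against 7.84% of all optimal summits and 6.55% of windows of the same width 1000 bp away. Protein-coding promoter peaks had 11.7% at the summit and 5.86% in the flanks. The replicates' own peaks at ncRNA starts had 6.67, 7.54 and 5.76% at the summit and 7.71, 5.95 and 6.38% in the flanks. Their mean difference was -0.0239 ± 1.41 points (exact sign-flip test over 3 replicates, two-sided, p = 1), and its sign changed with the settings. Among the stronger 50% of each top list the summit exceeded the flanks by 2.23 ± 0.299 points (same exact test, p = 0.25). Other distal peaks had 5.88% at the summit and 7.68% in the flanks.

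The word was unevenly shared between intronic and intergenic peaks, with overlapping intervals. It was present at 9 of 69 intronic peaks (13.0%, 95% Wilson interval 7.02 to 23.0%) and at 9 of 174 intergenic ones (5.17%, 2.74 to 9.54%). Intronic other distal peaks had 5.63% (216 of 3838). The 9 intronic peaks with the word lay from 547 bp (CycE) to 8348 bp (CG12493) from the nearest protein-coding start. Others of them were at 560 bp (gce) and 697 bp (CG2182). With protein-coding starts over 1000 bp away, the share among all peaks at ncRNA starts was 6.3%. The part of this nearness in the intronic share was not tested. In the replicates the intronic peaks at ncRNA starts had 10.2 ± 0.901% and intronic other distal peaks 5.52 ± 0.412% (SD, n = 3). Flanks of the intronic other distal peaks had 7.10, 7.67 and 7.44% in replicates 1, 2 and 3. In the same order, the intronic peaks at ncRNA starts had 9.59, 11.3 and 9.86% at the summit and 8.22, 4.93 and 4.93% in the flanks. These replicate values were examined after that of the optimal list and come largely from the same loci, 7, 8 and 7 peaks with the word, so they are given without a test.

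AGTGTA and ACACTG differed more. AGTGTA lay at 20.2% of the peaks and 6.75% of their flanks, and ACACTG at 21.4% and 7.14%. In the replicates the summit exceeded the flanks by 11.8 ± 2.43 points for AGTGTA and 13.6 ± 1.46 points for ACACTG (exact sign-flip tests, two-sided, p = 0.25 each, Benjamini-Hochberg adjusted p = 0.417 over 10 words). These words were the leading hexamers of the whole list and were chosen with that known. Other distal peaks had 19.3% for AGTGTA and 16.6% for ACACTG, and promoter peaks 12.0% and 17.1%.

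The words overlap on opposite strands in CAGTGTA, the joined word printed above. It lay at 24 of the 252 peaks (9.52%, 95% Wilson interval 6.48 to 13.8%) and 2.18% of their flanks, at 8.97% of other distal peaks and at 3.96% of promoter peaks. Of the 29 peaks with both words, 24 thus held them joined. The replicates' own peaks had 10.8, 11.5 and 8.23%, against 2.29, 1.59 and 2.06% in the flanks. The joined word was present at 5 of the 25 leading peaks, among them CR46102, CR44676 and CR45997.

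TATAAA was present at 35.7% of the peaks and 22.6% of their flanks, and TAATTA, the homeodomain core, at 18.3% and 13.9%. Both were near the level of the other classes, since TATAAA was at 38.1% of other distal peaks and 35.4% of promoter peaks, and TAATTA at 17.5% and 16.5%. TATCGATA, the DNA replication-related element common at promoters of constitutively expressed genes, was present at 2 of the 252 peaks (0.794%). It was present at 0.378% of other distal peaks and 6.25% of protein-coding promoter peaks. GAGAG was present at 23.4% of the peaks at ncRNA starts and at 23.4% of their flanks. No match says only that these letters are not within 100 bp of a summit.

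At the edge of the 500 bp limit from an ncRNA start, the last peaks inside were at CR43995 (500 bp, rank 7427) and CR45564 (497 bp, rank 4686). The first outside were at CR46445 (505 bp, rank 5985) and CR44587 (508 bp, rank 8246). At the limit from protein-coding starts, CR43837 (509 bp from Inx2, rank 1193) and CR45714 (513 bp from CG32547, rank 1431) were inside. CR44743 (494 bp from vri, rank 5735) and CR43817 (490 bp from CG43814, rank 6748) were outside.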

How the data were processed

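Each deposited dm6 list holds regions with a signal value and a −log10 q-value, both computed by the authors. Per the deposited file descriptions, the replicate and pooled lists were made from alignments with 1 shared control, and the optimal list from the 3 replicate lists and the pooled list. Aligner, peak caller, versions and sequencing depth were not given in the sources used here. The deposited −log10 q-value reached its maximum at 7035 of 8998 optimal peaks, so signal was used for ranks. Every summit was kept, including those of 46 repeated intervals.

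Starts came from Ensembl release 115 and sequence from RefSeq Release 6; 99.8% of 30593 annotated start codons read ATG there. Top lists held each replicate's 8998 strongest regions. Words were searched on both strands, with flanks 1000 bp to each side.

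Named genes were the nearest ncRNA genes of the 25 strongest peaks found in all 3 top lists, those on the known list, and the peaks at each distance limit. The members, lists and words were chosen with earlier results of these data known. Summit density, sides of the start, position in the gene body, microRNA hosts, the joined word and intronic TGACAG were added after the data had been seen. Alternatives changed distances, gene sets, strength, list length, overlap, word windows, flanks and replicates used. Functions were tested on simulated data. Python 3.11.15 was used with pandas 2.3.3, scipy 1.17.1, numpy 2.4.6 and matplotlib 3.10.9.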

Additional observations from a re-analysis of the deposited data

How the results depend on the processing

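No paired analysis was possible because there is a single group. Of 94 alternative values, 70 kept their direction (differences), stayed within 1.5 times (counts) or stayed within the counting interval or replicate SD (shares and medians). The 252 peaks and 262 ncRNA genes within 500 bp of them became 105 and 111 with a limit of 200 bp from an ncRNA start, and 447 and 446 with 1000 bp, as the rule's width sets. With 200 bp, the median percent rank in the optimal list was 54.7 in place of 53.7, the share with TGACAG 4.76% and the share within 100 bp of the start 42.9%. With 1000 bp the last was 10.1%. In the stronger 50% of peaks the share in all 3 top lists was 99.2% and the median percent rank 77.2, and ranking by −log10 q gave 60.9. With top lists of 4499 regions the share was 44.0%. TGACAG was at 4.76% of peaks within 50 bp and 15.1% within 200 bp of the summit. Its difference between summit and flanks, -0.0239 points, changed sign to 2.23 ± 0.299 points in the stronger 50% and to 0.897 points within 50 bp, and ranged from -0.830 to 0.485 when 1 replicate was left out; the cause was not tested.

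Without 1 replicate, the share in the remaining top lists ranged from 79.0% to 81.3% and the median percent rank from 61.1 to 62.1, the median being taken over peaks found in both other lists. The upstream excess within 300 bp ranged from 0.0739 to 0.0775 summits per kb, was 0.0454 within 500 bp and changed sign to -0.00333 from 300 to 500 bp (the cause was not tested), and the excess within 500 bp over 500 to 1000 bp from 0.00811 to 0.0164 per kb; these alternatives were chosen after seeing the data. With 3 replicates the sign-flip test cannot give a p under 0.25. All lists were made with the same control, whose part in the peaks was not tested. Counts of words rest on few peaks, and depth is unknown.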
